A study of Arabis alpina with 9 samples.

Results

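The AP2-like genes are the branch of the APETALA2 transcription factor family whose messengers carry a site for the microRNA miR172. In Arabidopsis they are *AP2* (AT4G36920), *SMZ* (AT3G54990), *SNZ* (AT2G39250), *TOE1* (AT2G28550), *TOE2* (AT5G60120) and *TOE3* (AT5G67180). Members here were chosen by ortholog: every *Arabis alpina* gene of the expression table whose listed Arabidopsis ortholog was any of these 6 genes. The rule matched 5 genes of the 30690 in the table, namely *PEP2* (the *AP2* ortholog), *AaSMZ*, *AaTOE1*, *AaTOE2* and *AaTOE3*. No gene was matched to *SNZ*, which was not analysed here, and neither was *PEP1*.

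In Arabidopsis, young plants hold much miR156, which silences genes of the SPL family. As miR156 declines with age, SPL proteins activate miR172, which lowers the AP2-like proteins by blocking translation as well as by cleaving messengers, so that messenger and protein levels need not move together. AP2-like proteins delay flowering by repressing activators such as *FT* and *SOC1*, and AP2 itself also acts in flowers, where it is needed for sepals and petals. *A. alpina* is a perennial relative of Arabidopsis in which the Pajares accession flowers only after prolonged cold, and loss of *PEP1* or *PEP2* removes that need.

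Polyadenylated RNA was sequenced from dissected shoot apices of 3-week-old plants, grown in long days of 16 h light and 8 h dark. The groups were *pep2-1* (written *pep2* in the labels), *pep1-1* and the Pajares wild type, with 3 libraries each, described by the study as biological replicates. Both mutants were induced with EMS in the Pajares background. Homozygous *pep2-1* individuals were identified by a DNA marker in a population that still segregated. Plants of either mutant may carry further EMS changes that the wild type lacks. Each mutation was represented by a single allele, and the study described plants of this age as still vegetative.

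The libraries held 12871904 to 23829973 reads in genes. They are named by genotype and by the letter (A, B or C) given in the table, since the labels number the replicates and do not tie a number to a letter. Library A had the lowest position of its genotype on the first principal component of log2 CPM, which held 49.5% of the variance. Meristem markers were present: the *KNAT1* ortholog averaged 65.7 CPM in *pep2-1*, 51.4 in *pep1-1* and 50.3 in the wild type (CPM, reads scaled by library size after TMM correction). The stem cell markers *CLV3* and *WUS* were at or near 0, with 0, 3 and 3 reads of *CLV3* and 0, 4 and 0 reads of *WUS* in *pep2-1*, *pep1-1* and the wild type, summed over 3 libraries. The summed level of the 8 meristem markers was 195 to 250 CPM in *pep2-1*, 146 to 200 CPM in *pep1-1* and 154 to 207 CPM in the wild type. By the edgeR test described below, 6 of them were tested and none passed in any comparison. Their median log2 fold change was 0.32 in *pep2-1* against the wild type (range -0.44 to 0.56) and 0.085 in *pep1-1* against the wild type. The part of these markers in the values of the AP2-like genes was not tested. In bulk apices, a change in the number of cells that express a gene and a change in RNA per cell cannot be told apart.

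The family did not move as a unit. *AaSMZ* was highest in *pep2-1*, intermediate in the wild type and lowest in *pep1-1*, a 5.10-fold span between the mutants. Relative to the wild type, *AaTOE3* was 2.29-fold higher in *pep2-1*, and relative to *pep1-1*, *PEP2* messenger was 1.44-fold higher in *pep2-1*. *PEP2* and *AaTOE1* showed the same order of means as *AaSMZ*, *AaTOE1* without passing the test. *AaTOE2* passed in no comparison.

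Differences were tested with edgeR's quasi-likelihood test over the 21713 genes that passed a filter on low counts, all 5 AP2-like genes among them, with Benjamini-Hochberg adjustment. Genes with an adjusted p no larger than 0.05 passed, and those that also had a log2 fold change of 1 or more in size were called. The p-values set each difference between genotypes against the spread between these libraries. In *pep2-1* against the wild type, 2 of the 5 AP2-like genes passed, both higher, beside 1.52% of all tested genes that passed and 0.405% that passed higher. Of these, 1 was called, beside 0.175% of all genes called higher. In *pep1-1* against the wild type, 1 of the 5 passed, lower, beside 0.193% of all genes that passed and 0.0921% that passed lower, and it was called, beside 0.0783% of all genes called lower. With the table letter as a replicate block the same gene, *AaSMZ*, was the 1 that passed there, beside 0.41% of all genes. In *pep2-1* against *pep1-1*, 2 of the 5 passed, both higher, beside 2.51% of all genes that passed and 1.28% that passed higher, and 1 was called, beside 0.686% of all genes called higher. The median log2 fold change over the 5 genes was 0.62 in *pep2-1* against the wild type, -0.19 in *pep1-1* against the wild type and 0.56 in *pep2-1* against *pep1-1*, and the medians of all tested genes were -0.0013, -0.0025 and -0.0068. Any 2 of the comparisons share the libraries of 1 genotype. A gene's log2 fold change between the mutants is the difference of its other 2, so it is no separate support for them.

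**Figure D1:**
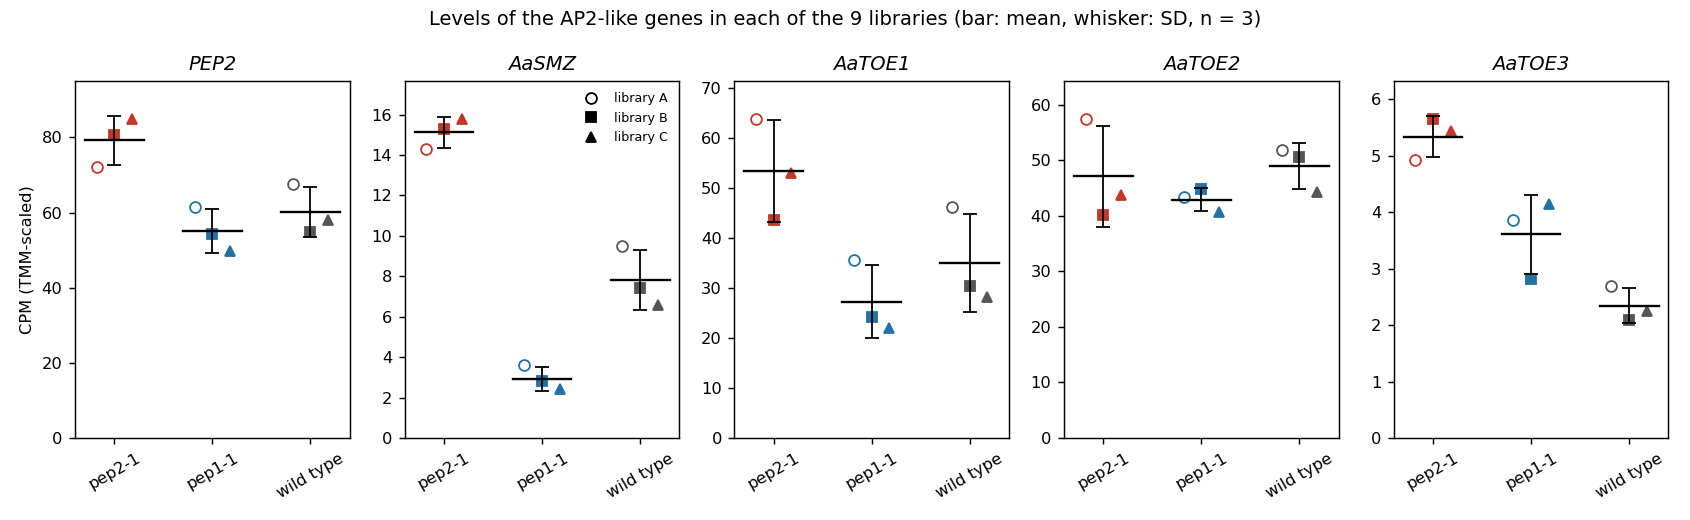
Level of each AP2-like gene (CPM, linear axis starting at 0) in the 3 libraries of *pep2-1*, *pep1-1* and the wild type, with A as open circles, B as squares and C as triangles, and the mean and SD over n = 3. *AaSMZ* and *AaTOE3* separate all 3 genotypes, *AaTOE3* with a gap between *pep1-1* and the wild type that lies within counting error. Library A of *AaTOE1* is the highest in each genotype, and *AaTOE2* overlaps throughout.

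*AaSMZ* (AALP_AA5G187300) sits at 15903599 to 15906490 of chromosome 5 in the *A. alpina* reference assembly. Its Arabidopsis ortholog, *SCHLAFMÜTZE*, is a repressor of flowering that acts on *FT*. The level of *AaSMZ* was 14.3, 15.3 and 15.8 CPM in *pep2-1* libraries A, B and C, 3.59, 2.81 and 2.42 CPM in *pep1-1*, and 9.48, 7.41 and 6.60 CPM in the wild type. No library of any genotype overlapped with those of another, and the lowest *pep2-1* library lay above the highest wild-type library. The mean was 15.1 ± 0.760 CPM in *pep2-1*, 2.94 ± 0.593 CPM in *pep1-1* and 7.83 ± 1.48 CPM in the wild type (SD, n = 3 each).

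The test gave *AaSMZ* opposite directions in the mutants. In *pep1-1* against the wild type it fell by 1.40 on the log2 scale (SE 0.182, 95% interval -1.80 to -0.99, adjusted p = 0.0155 from edgeR), which left 0.379 of the wild-type level, and only 0.562% of tested genes had a larger fitted change in either direction. In *pep2-1* against the wild type it rose by a log2 fold change of 0.95 (SE 0.160, 95% interval 0.60 to 1.31, adjusted p = 0.0196 from edgeR), or 1.93-fold, just under the log2 fold change of 1 that a call needs. Between the mutants, *pep2-1* over *pep1-1*, the log2 fold change was 2.35 (SE 0.179, 95% interval 1.95 to 2.75, adjusted p = 0.000252 from edgeR), the 11th smallest p-value of the comparison.

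The *pep1-1* values of *AaSMZ* rest on 53, 39 and 31 reads in A, B and C, and the exact Poisson interval of the smallest was 21.1 to 44.0 reads. That interval covers counting error only. The *pep2-1* libraries held 226, 198 and 200 reads of *AaSMZ* and the wild-type libraries 130, 181 and 94. The difference between *pep2-1* and *pep1-1* passed under all 17 alternative settings and left-out libraries, with log2 fold changes of 2.23 to 2.56. The difference between *pep1-1* and the wild type kept log2 fold changes of -1.57 to -1.25 but lost its call without wild-type library B (adjusted p = 0.0731 from edgeR), *pep1-1* library B (0.0869) or *pep1-1* library C (0.0785), or when only the 6 libraries compared were fitted (0.0897). The rise in *pep2-1* over the wild type kept log2 fold changes of 0.85 to 1.14, and its adjusted p from edgeR was 0.109 without wild-type library B, 0.0926 without wild-type C, and 0.0563, 0.0759 and 0.0974 without *pep2-1* A, B and C.

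*AaTOE3* (AALP_AA8G511400), at 40616736 to 40618730 on chromosome 8, had the lowest level per transcript length of the AP2-like genes in *pep2-1* and in the wild type. Its Arabidopsis ortholog, *TARGET OF EARLY ACTIVATION TAGGED 3*, is like the other TOE genes a target of miR172. *AaTOE3* stood at 4.93, 5.64 and 5.44 CPM in *pep2-1* libraries A, B and C, at 3.86, 2.81 and 4.14 CPM in *pep1-1*, and at 2.70, 2.09 and 2.25 CPM in the wild type. The genotypes did not overlap here either, but unlike *AaSMZ* the *pep1-1* libraries lay between those of *pep2-1* and the wild type. The gap to the wild type was narrow, from 2.81 CPM in *pep1-1* B (39 reads, exact Poisson interval 27.7 to 53.3) to 2.70 CPM in wild-type A (37 reads, 26.1 to 51.0). It lay within counting error. Libraries of no 2 genotypes overlapped for 1.49% of all tested genes. The *AaSMZ* order (*pep1-1* lowest, *pep2-1* highest) held for 0.401% and the *AaTOE3* order (wild type lowest, *pep2-1* highest) for 0.157%.

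In *pep2-1* against the wild type, *AaTOE3* rose by a log2 fold change of 1.19 (SE 0.191, 95% interval 0.77 to 1.62, adjusted p = 0.0166 from edgeR) and was called. In *pep1-1* against the wild type its log2 fold change was 0.63 (SE 0.197, 95% interval 0.19 to 1.07), with an adjusted p of 0.536 from edgeR, and in *pep2-1* against *pep1-1* it was 0.56 (SE 0.186, 95% interval 0.15 to 0.98), with an adjusted p of 0.145 from edgeR. The reads behind these values were 78, 73 and 69 in *pep2-1*, 57, 39 and 53 in *pep1-1*, and 37, 51 and 32 in the wild type. The call in *pep2-1* against the wild type was lost without wild-type library B (adjusted p = 0.0944 from edgeR) or C (0.0822) and without *pep2-1* library B (0.0689) or C (0.0739), at log2 fold changes that stayed between 1.11 and 1.36 over all alternatives.

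*PEP2* (AALP_AA7G245300), at 26841956 to 26844520 on chromosome 7, carries the mutation of *pep2-1*. Its messenger was not reduced in the mutant, with 72.2, 80.7 and 84.8 CPM in *pep2-1* libraries A, B and C, 61.5, 54.2 and 49.7 CPM in *pep1-1*, and 67.6, 54.9 and 57.9 CPM in the wild type. Every *pep2-1* library was above every library of the other genotypes, and *pep1-1* overlapped with the wild type. Since an EMS change need not alter messenger level, these values are no check of the genotype labels. Between the mutants, *pep2-1* over *pep1-1*, *PEP2* had a log2 fold change of 0.52 (SE 0.108, 95% interval 0.28 to 0.76, adjusted p = 0.0399 from edgeR). In *pep2-1* against the wild type it was 0.40 (95% interval 0.16 to 0.64) with an adjusted p of 0.118 from edgeR, and in *pep1-1* against the wild type -0.12 (95% interval -0.37 to 0.12) with an adjusted p of 0.966.

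The difference in *PEP2* between the mutants depended on single libraries. It lost the test without any of wild-type B or C, *pep1-1* B or C, or *pep2-1* A, B or C, and when only the 6 libraries compared were fitted, with adjusted p-values of up to 0.141 from edgeR and log2 fold changes of 0.45 to 0.67. Against the wild type the *PEP2* difference passed without wild-type library A (log2 fold change 0.49, adjusted p = 0.0496 from edgeR), with all 3 A libraries left out (0.55, adjusted p = 0.0051), and with DESeq2 in place of edgeR (adjusted p = 0.0429).

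*AaTOE1* (AALP_AA6G223300) sits at 21794412 to 21796377 on chromosome 6, and *TOE1* delays flowering in Arabidopsis, in part together with *TOE2*. Its level was 63.8, 43.6 and 53.0 CPM in *pep2-1* libraries A, B and C, 35.7, 24.2 and 22.0 CPM in *pep1-1*, and 46.2, 30.4 and 28.3 CPM in the wild type. Library A was the highest of each genotype, so *pep2-1* library B lay under wild-type library A and those genotypes overlapped, whereas *pep2-1* and *pep1-1* did not. Library A exceeded the mean of B and C by a ratio of 1.32 in *pep2-1*, 1.54 in *pep1-1* and 1.57 in the wild type, and only 4.44%, 2.18% and 2.61% of tested genes had a higher such ratio (with a pseudocount of 2 CPM). The biological coefficient of variation of *AaTOE1* was 19.97%, against a median of 9.23% for genes of like level, and 96.2% of those genes varied less.

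With that spread, the log2 fold change of *AaTOE1* was 0.97 in *pep2-1* against *pep1-1* (SE 0.232, 95% interval 0.45 to 1.49, adjusted p = 0.0611 from edgeR) and 0.62 in *pep2-1* against the wild type (95% interval 0.11 to 1.13, adjusted p = 0.24). In *pep1-1* against the wild type it was -0.35 (95% interval -0.87 to 0.17, adjusted p = 0.919 from edgeR). With the A libraries of all 3 genotypes left out, *AaTOE1* passed in *pep2-1* against the wild type (log2 fold change 0.71, adjusted p = 0.00707 from edgeR) and in *pep2-1* against *pep1-1* (1.06, adjusted p = 0.00088), beside 6.71% and 8.22% of all genes that then passed. Among libraries of the same letter, *AaTOE1* was highest in *pep2-1* and lowest in *pep1-1* under all 3 letters, as were *AaSMZ* and *PEP2*. A replicate block by letter made *AaTOE1* pass in edgeR in *pep2-1* against the wild type (0.63, adjusted p = 0.00788) and in *pep2-1* against *pep1-1* (0.98, adjusted p = 0.000675), beside 5.1% and 8.87% of all genes. The difference between the mutants also passed without *pep1-1* library A alone (adjusted p = 0.0232 from edgeR) or wild-type library A alone (0.0287), and with DESeq2 on all libraries (adjusted p = 0.00197). What sets the A libraries apart was not tested.

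*AaTOE2* (AALP_AA8G398000), at 33664349 to 33667161 on chromosome 8, is the ortholog of a further miR172 target that delays flowering. It was measured at 57.4, 40.2 and 43.7 CPM in *pep2-1*, 43.3, 44.7 and 40.6 CPM in *pep1-1*, and 51.9, 50.6 and 44.3 CPM in the wild type. All genotypes overlapped, and the widest spread was within *pep2-1*, where library A was high. The log2 fold change of *AaTOE2* was -0.05 in *pep2-1* against the wild type (95% interval -0.34 to 0.23), -0.19 in *pep1-1* against the wild type (-0.47 to 0.09) and 0.14 in *pep2-1* against *pep1-1* (-0.15 to 0.42). These intervals leave room for a change of up to 1.34-fold between the mutants and for a fall to 0.721 of the wild-type level in *pep1-1*. The adjusted p-values from edgeR were 0.878, 0.921 and 0.611.

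**Figure D2:**
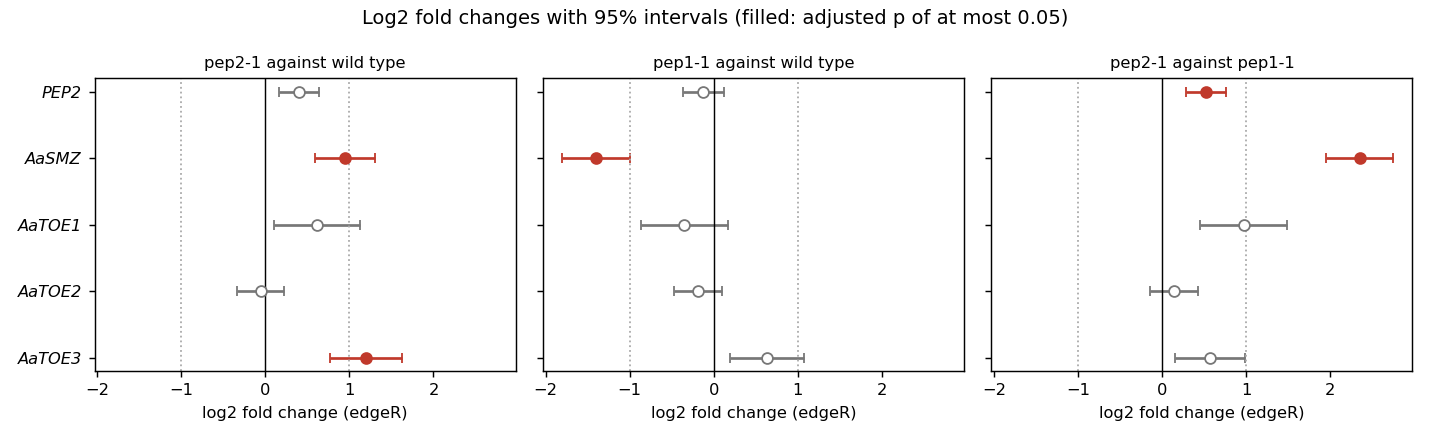
Log2 fold change of each AP2-like gene from edgeR with its 95% interval in the 3 comparisons. Filled red points passed the test, open points did not, and dotted lines mark a log2 fold change of 1 in either direction. *AaSMZ* is at 0.95, -1.40 and 2.35, and *AaTOE3* at 1.19, 0.63 and 0.56.

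Counted by separation alone, 3 of the 5 genes lay higher without overlap in *pep2-1* against the wild type, beside 10.4% of all tested genes. In *pep1-1* against the wild type, 1 lay higher (*AaTOE3*) and 1 lower (*AaSMZ*), beside 5% and 5.94% of all genes. In *pep2-1* against *pep1-1*, 4 of the 5 lay higher, all but *AaTOE2*, beside 12.6% of all genes.

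**Figure D3:**
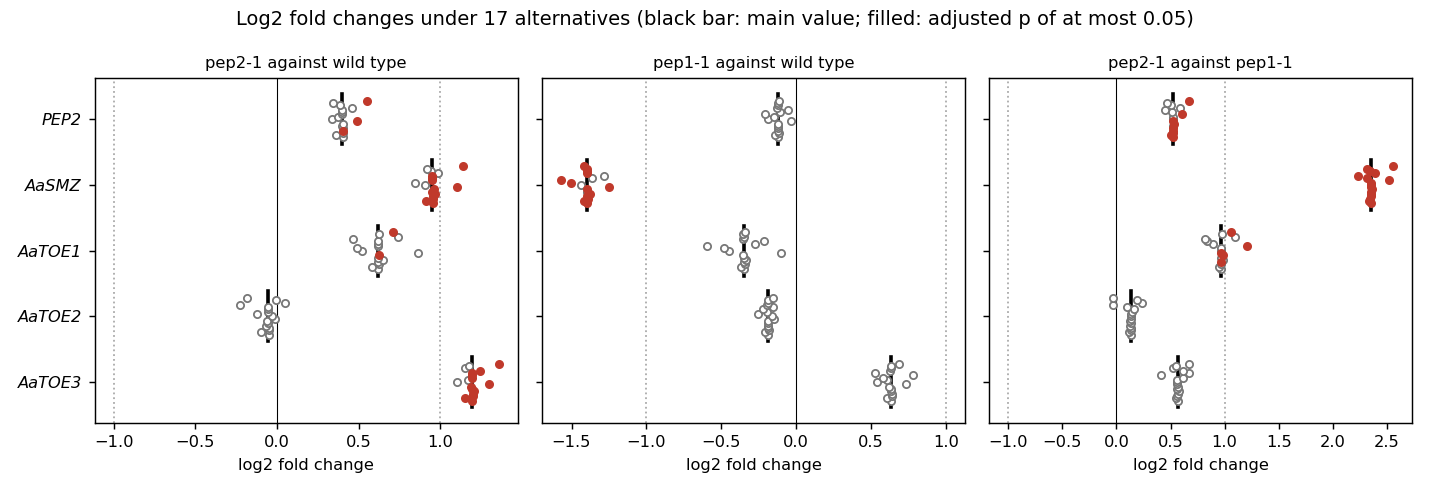
Log2 fold change of each AP2-like gene under 17 alternatives (other scalings, filters, tools, a replicate block and left-out libraries), with the value of the edgeR test as a black bar and settings that passed filled in red. In *pep2-1* against *pep1-1*, *AaSMZ* passed under each of them, and in *pep2-1* against the wild type *AaSMZ* passed under 12 and *AaTOE3* under 13.

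To compare genes with each other, levels were set per transcript length. The authors' FPKM, a length-scaled level with 1 value per genotype, gave each gene a fixed ratio to its CPM, and that ratio turned the CPM of each library into FPKM units. *PEP2* had the highest mean in each genotype, at 52.7 ± 4.29 FPKM units in *pep2-1*, 36.6 ± 3.95 in *pep1-1* and 39.97 ± 4.41 in the wild type (SD, n = 3 each). In the wild type it was followed by *AaTOE1* (32.6 ± 9.14 FPKM units) and *AaTOE2* (32.1 ± 2.70), each overlapping with its neighbour in the order, then by *AaSMZ* (9.24 ± 1.75) and *AaTOE3* (2.27 ± 0.305), which overlapped with none. By the authors' FPKM, 84.2% of the genes with reads in the wild type were lower than *PEP2* and 27.2% were lower than *AaTOE3*.

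The order changed among the less abundant members. *AaSMZ* reached 17.8 ± 0.896 FPKM units in *pep2-1*, above *AaTOE3* at 5.16 ± 0.355. In *pep1-1*, *AaSMZ* (3.47 ± 0.70 FPKM units) and *AaTOE3* (3.48 ± 0.675) overlapped. Among the abundant members, *AaTOE1* overlapped with *PEP2* in *pep2-1* (49.9 ± 9.45 FPKM units) and with *AaTOE2* in *pep1-1* (25.5 ± 6.86).

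The 5 genes summed to 156 ± 11.4 FPKM units in *pep2-1*, 97.2 ± 12.1 in *pep1-1* and 116 ± 17.2 in the wild type (SD, n = 3 each). *pep2-1* libraries (144 to 167) lay above all others, while *pep1-1* (87.1 to 111) and the wild type (104 to 136) overlapped. The share of *AaSMZ* in that sum ranged over 10.1 to 12.5% in *pep2-1*, 3.28 to 3.83% in *pep1-1* and 7.49 to 8.22% in the wild type, with no overlap between genotypes. *AaTOE2* made up 19.7 ± 2.53% in *pep2-1*, 29.2 ± 3.02% in *pep1-1* and 27.9 ± 2.74% in the wild type, so its share was lower in *pep2-1* while its own level did not pass the test. *PEP2* held 33.8% in *pep2-1*, 37.7% in *pep1-1* and 34.5% in the wild type.

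**Figure D4:**
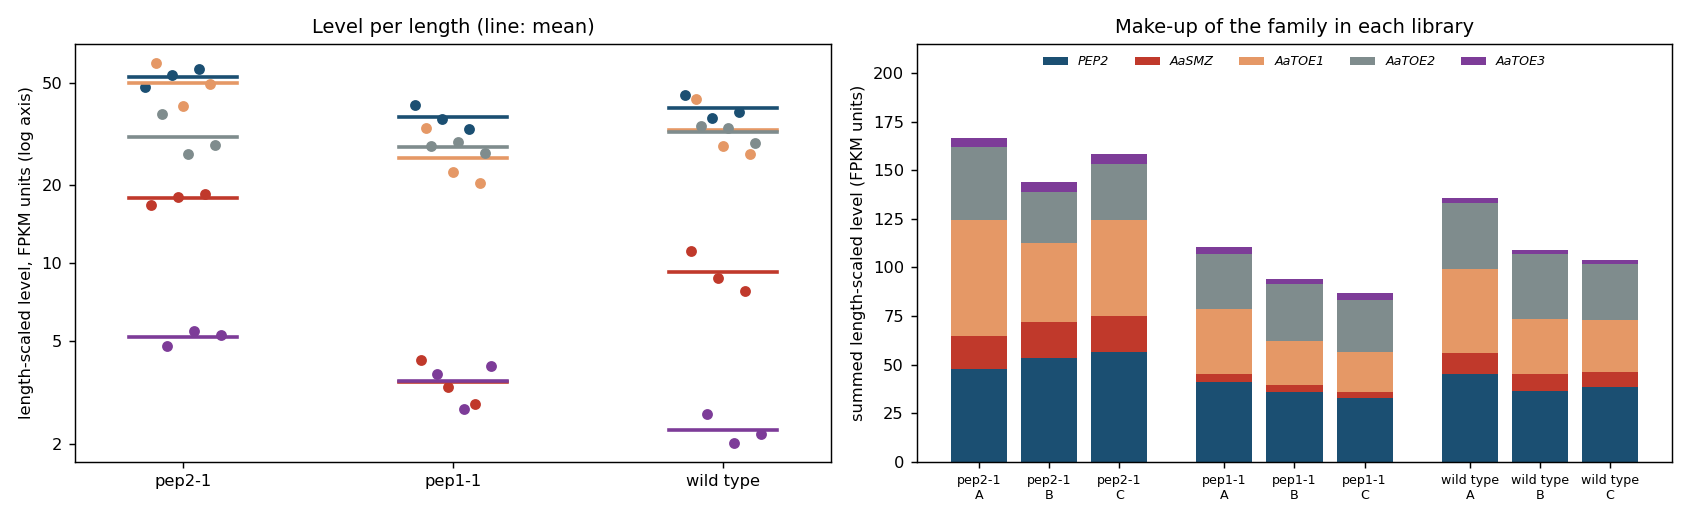
Left, length-scaled level of each AP2-like gene per library in FPKM units on a log axis, with lines at the means. Right, sum over the 5 genes per library on a linear axis, stacked by gene, from 87.1 to 167. *AaSMZ* (red) is a clear layer in *pep2-1* and a thin one in *pep1-1*, where it meets *AaTOE3* (purple) on the left panel.

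Of the floral organ markers, 2 were tested and 1 passed, the ortholog of *CRABS CLAW*, while *AP3* had a log2 fold change of -0.21 in *pep2-1* against the wild type (edgeR, adjusted p = 0.789). The 5 markers in the table summed to 9.41 to 10.4 CPM in *pep2-1*, 3.91 to 6.16 CPM in *pep1-1* and 4.54 to 6.04 CPM in the wild type. Most of this was *CRABS CLAW*, a carpel gene (AALP_AA2G117700), at 8.05 ± 0.517 CPM in *pep2-1*, 3.64 ± 1.19 CPM in *pep1-1* and 3.39 ± 0.884 CPM in the wild type (log2 fold change in *pep2-1* 1.27 against the wild type with an adjusted p of 0.0394 from edgeR, and 1.13 against *pep1-1* with 0.0487). It lost the test against the wild type without any single wild-type or *pep2-1* library or without *pep1-1* library B, and against *pep1-1* without any single *pep2-1* library, *pep1-1* library B or C or wild-type library C or with only the 6 libraries compared, with adjusted p-values of up to 0.16. The petal and stamen markers *AP3* and *PI* were near 0, with means of 0.927 and 0.288 CPM in *pep2-1* and 1.07 and 0.231 CPM in the wild type. The part of these markers in the values of *AaSMZ*, *AaTOE3* and *PEP2* was not tested. Summed root markers stayed at 0.722 to 2.67 CPM over all libraries, and leaf photosynthetic markers overlapped between genotypes, at 4845 to 8638 CPM in *pep2-1*, 4092 to 5692 CPM in *pep1-1* and 3724 to 7201 CPM in the wild type.

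Genes around the AP2-like genes in the miR156 and miR172 pathway were counted with the same test. Upstream, 8 SPL genes that are miR156 targets in Arabidopsis were tested. None passed edgeR's test in *pep2-1* against the wild type (median log2 fold change 0.0085), none had an unadjusted p under 0.05, and none passed with DESeq2 or limma-voom. In *pep1-1*, *AaSPL15* (AALP_AA5G233200), an activator of flowering, was the only SPL gene that passed, at 10.2 ± 1.60 CPM against 2.37 ± 0.284 CPM in the wild type (log2 fold change 2.09, adjusted p = 0.00671 from edgeR). It was also the only SPL gene that passed in *pep2-1* against *pep1-1*, at 3.35 ± 1.16 CPM in *pep2-1* (log2 fold change -1.59, adjusted p = 0.0103 from edgeR). The call in *pep1-1* against the wild type was lost without wild-type library B (adjusted p = 0.053). Levels of miR172 itself were not analysed here. None of 7 genes of small RNA processing and silencing passed edgeR's test in any of the 3 comparisons, or had an unadjusted p under 0.05, or passed with DESeq2 or limma-voom, with median log2 fold changes of -0.0047 in *pep2-1* and -0.046 in *pep1-1* against the wild type. With the 3 A libraries left out, AALP_AA1G102100 of that list passed in edgeR in *pep2-1* against the wild type, beside 6.71% of all genes.

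On the output side, none of 5 tested genes for corepressors that bind AP2-like proteins passed with edgeR, DESeq2 or limma-voom, and 1 had an unadjusted p under 0.05 from edgeR, in *pep2-1* against *pep1-1*. From a list of flowering and floral genes linked to AP2-like proteins in Arabidopsis, not all of them direct targets, 4 were tested. *AaSOC1* (AALP_AA4G246000), a MADS box activator of flowering, rose in both mutants, to 5.82 ± 0.703 CPM in *pep2-1* and 8.80 ± 0.657 CPM in *pep1-1* against 1.55 ± 0.0453 CPM in the wild type (log2 fold changes 1.90 and 2.50, adjusted p = 0.000533 and 0.000111 from edgeR). *AaTFL1* (AALP_AA8G031100), which keeps shoot meristems from becoming floral, fell in *pep2-1* to 7.11 ± 0.884 CPM against 18.1 ± 4.57 CPM in the wild type (log2 fold change -1.36, adjusted p = 0.0284 from edgeR). Its test was lost without wild-type library B or C or any *pep2-1* library, with adjusted p-values of up to 0.13. None of these 4 genes passed edgeR's test in *pep2-1* against *pep1-1*, where 2 had an unadjusted p under 0.05 and DESeq2 and limma-voom passed 1 each. There *AaSOC1* had a log2 fold change of -0.59 (95% interval -0.90 to -0.29, adjusted p = 0.0556 from edgeR), with passes by limma-voom and by edgeR on library size alone. *AaTFL1* had one of -1.01 (95% interval -1.58 to -0.45, adjusted p = 0.0698 from edgeR), with a pass by DESeq2. In edgeR it passed without the 3 A libraries together, and without wild-type library A or *pep1-1* library A alone. *AaSOC1* and *AaTFL1* both passed there under the replicate block by letter.

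Few other relatives of the family passed. Of 8 tested AP2 family genes without a miR172 site, the *AIL5* ortholog (AALP_AA8G362800) was the only one that passed, lower in *pep2-1* at 16.1 ± 2.08 CPM against 26.7 ± 0.817 CPM in the wild type (log2 fold change -0.72, adjusted p = 0.0387 from edgeR), and it lost the test under 6 of 17 alternatives, which left out wild-type library B or C, *pep1-1* library C or any *pep2-1* library, with an adjusted p of up to 0.162. In the other comparisons none of the 8 passed edgeR's test, 2 had an unadjusted p under 0.05 in *pep1-1* against the wild type and 3 in *pep2-1* against *pep1-1*, and DESeq2 passed 1 in the comparison of the mutants. None of 4 further repressors of *FT* (the orthologs of *TEM1*, *TEM2*, *SVP* and *AGL18*) passed in any comparison with edgeR, DESeq2 or limma-voom on all 9 libraries, and none had an unadjusted p under 0.05. Without the 3 A libraries, the *TEM2* ortholog (AALP_AA2G113800) passed in edgeR in both comparisons of *pep2-1*, beside 6.71% of all genes against the wild type and 8.22% against *pep1-1*.

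No AP2-like gene overlapped with another gene on the chromosome. *AaTOE3* came closest, 15 bp from AALP_AA8G511300, whose log2 fold change in *pep2-1* against the wild type was -0.41 (adjusted p = 0.537 from edgeR), and *AaTOE2* lay 753 bp from its neighbour. *PEP2* stood 19482 bp and 15191 bp from the genes beside it. Of the nearest genes on either side of the 5, 6 were tested and none passed edgeR's test in any comparison. An unadjusted p under 0.05 was found for 0 in *pep2-1* and 1 in *pep1-1* against the wild type and for 1 in *pep2-1* against *pep1-1*, where DESeq2 also passed 1.

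Finally, genes were ranked by how closely their log2 CPM followed that of *PEP2* or *AaSMZ* over the 9 libraries (root mean square difference of centred values, pseudocount 2 CPM, 13877 candidates with a mean of at least 5 CPM). Closest to *PEP2* were the orthologs of *LIKE AUX1 3*, an auxin influx carrier (AALP_AA2G219600, 0.0587), of a major facilitator superfamily protein (AALP_AA4G190800, 0.0628) and of a 2-oxoglutarate dependent oxygenase (AALP_AA6G088500, 0.0706), beside a median of 0.273 over all candidates. For *AaSMZ* they were the orthologs of annexin 6 (AALP_AA8G100700, 0.269), of phosphoenolpyruvate carboxylase kinase 1 (AALP_AA1G088400, 0.272) and of a glutathione S-transferase (AALP_AA8G016900, 0.286), beside a median of 0.756. The annexin 6 ortholog, for instance, averaged 8.62 CPM in *pep2-1*, 2.42 CPM in *pep1-1* and 4.60 CPM in the wild type. A gene with no change over the libraries would lie at 0.246 from *PEP2* and at 0.747 from *AaSMZ*, near the medians. These rankings describe 9 libraries that share genotype and library effects, and carry no test.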

How the data were processed

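The authors prepared TruSeq libraries of polyadenylated RNA, sequenced 100 bp single-end reads and aligned these to the *A. alpina* assembly by TopHat with its defaults. For tool versions, gene annotation and strandedness of the counting, nothing is given in the sources used. The reads per gene in the deposited table are estimated counts, since 64 genes (no AP2-like gene) hold fractions, and were rounded. The FPKM values were deposited by the authors from CuffDiff, 1 per genotype over its replicates. FPKM and scaled reads per library (18 columns) were not used, and the reads were the measure kept. All columns of a library, those of the reads too, show only its genotype and letter. FPKM per library had been planned for levels per length, which instead rest on the ratio of the authors' FPKM to CPM. Columns of the authors' comparisons (fold changes, p-values and q-values) were not used. Locus starts were taken to count from 0 and were shifted by 1.

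Genes were filtered with filterByExpr (minimum count 10, minimum total 15), scaled by TMM (factors 0.981 to 1.03) and tested with edgeR 4.0.16 under R 4.3.3, all 9 libraries in 1 model. Standard errors derive from the quasi-likelihood F. The labels do not say whether a letter marks a shared batch. In *pep1-1* and the wild type, deviations of same-lettered libraries correlated at 0.626 (A), 0.385 (B) and 0.319 (C), and the blocked count is given beside that comparison. For *pep2-1* and the wild type the values were 0.472 (A), 0.388 (B) and 0.0138 (C). Between *pep2-1* and *pep1-1* they were 0.312 (A), 0.0769 (B) and -0.0273 (C). The A libraries thus deviated together in all 3 comparisons, and the edgeR test held no block. The scripts were tested on simulated data. Alternatives were DESeq2 size factors, library size alone, no filter, DESeq2 1.42.0, voom of limma 3.58.1, only the 6 libraries compared, a replicate block and each library left out. Leaving out the A libraries together, and the alternatives for pathway genes, were chosen after seeing the data. Members and lists were chosen with earlier results of these data known. The text names all members, pathway genes that passed (at most 4 per list and comparison), markers that check the tissue, and the 3 genes most like *PEP2* and *AaSMZ*.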

Additional observations from a re-analysis of the deposited data

How the results depend on the processing

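Over 17 alternatives of 15 values (5 AP2-like genes in 3 comparisons), 221 of 255 kept direction and side of the threshold, 21 lost the test, 10 gained it and 3 reversed. The reversals were all of *AaTOE2*, which never passed. With single libraries left out its log2 fold change was -0.23 to 0.047 in *pep2-1* against the wild type (highest without *pep2-1* library B) and -0.035 to 0.24 in *pep2-1* against *pep1-1* (lowest without *pep2-1* library A), and without the 3 A libraries it was -0.030 in the comparison of the mutants. With only the 6 libraries compared, AP2-like genes that passed numbered 0 in *pep1-1* against the wild type, where 24 of all genes passed (0.112%), and 1 in *pep2-1* against *pep1-1*, where 350 did (1.64%). Without the 3 A libraries, 4 passed in *pep2-1* against the wild type, beside 1456 of all genes (6.71%). Leaving out single libraries, AP2-like genes that passed numbered 0 to 3 in *pep2-1* and 0 to 1 in *pep1-1* against the wild type, and 1 to 3 in *pep2-1* against *pep1-1*, while the number of all genes fell to as few as 85, 17 and 125 against 330, 42 and 545 with every library. Pathway genes that passed numbered 3 in *pep2-1* against the wild type, 2 in *pep1-1* against the wild type and 1 in *pep2-1* against *pep1-1*. Leaving out single libraries they numbered 1 to 3, 1 to 2 and 1 to 3, and without the A libraries 6 in *pep2-1* against the wild type and 6 in *pep2-1* against *pep1-1*. In that last comparison they were 2 with library size alone, with no filter, and with limma-voom, and 4 with DESeq2. With no filter and with DESeq2 these include AALP_AA8G184500, which the filter on low counts had removed from the edgeR test. DESeq2 passed 644, 119 and 1113 of all genes. limma on log2 FPKM per library was not run, since those columns were not used. The cause of these changes was not tested beyond the libraries or genes left out.

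The letters were tried as a replicate block. Deviations of same-lettered libraries correlated at -0.0273 to 0.626 over 9 pairs, above 0.1 in 6. In both comparisons of *pep2-1* not every library correlated best with its own letter. Under the block 3 AP2-like genes passed in each of these, 5 pathway genes passed in *pep2-1* against *pep1-1*, and 1107, 89 and 1925 of all genes passed in the 3 comparisons. Depth limits *AaSMZ* in *pep1-1* and *AaTOE3* in the wild type, at 31 to 53 and 32 to 51 reads a library.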
